A study of Mus musculus with 25 samples.

Results

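The 10 genes described here encode proteins by which astrocytes act on synapses: the thrombospondins Thbs1 and Thbs2, the SPARC family proteins Sparcl1 (hevin) and Sparc, the glypicans Gpc4 and Gpc6, the secreted factors Chrdl1 and Nptx2, and the engulfment receptors Megf10 and Mertk. They were chosen by gene name and make up 10 of the 54429 entries in the deposited expression table. All 10 passed the filter on low values, among 19800 genes tested. RNA sequencing was done on astrocytes of C57BL/6J mouse cortex that had been purified by immunopanning, in which cells are caught on a dish coated with an antibody, here to the astrocyte surface protein HepaCAM, and then grown in culture. The 25 libraries fall into 9 groups. Every group shares the strain and the purification and was grown in culture, where the groups differ as follows. EGFR inhibitor cells and their EGFR DMSO controls have 3 libraries each, and so do P53 inhibitor cells and their own P53 DMSO controls. The labels place the addition of either inhibitor at day 2 in vitro. HBEGF withdrawal cells and HBEGF cells have 2 libraries each, with the growth factor HBEGF, a ligand of the EGF receptor, added or withdrawn at the day of preparation. The remaining 9 libraries come from cells sampled at days 2, 7 and 14 in vitro, with 3 libraries a day. The identity and dose of the inhibitors, the dose of HBEGF and the harvest day of the treated cells are stated in no source used here. Nor is it stated whether replicates are separate animals or cultures, so p-values reflect only how these samples vary among themselves, and that variation may be technical.

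Astrocytes take part in the formation of excitatory synapses by releasing proteins that act at different steps. Thrombospondins and hevin promote the assembly of structural contacts, SPARC opposes hevin, glypicans and the pentraxin Nptx2 help to bring AMPA-type glutamate receptors to the postsynaptic membrane, and Chrdl1 favours the exchange of these receptors for calcium-impermeable ones. MEGF10 and MERTK act later, as surface receptors through which astrocytes take up synaptic material.

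The libraries held 4009947 to 9690600 reads assigned to genes (median 6107235). Values below are CPM, reads scaled to the same assigned total in each library, recovered from the deposited RPKM. Changes are log2 differences of CPM + 1 with their SE from limma, a linear model fitted across all genes, and a gene is called where its adjusted p is below 0.05. This scale understates the change of genes near 1 CPM. Folds are ratios of mean CPM. All 10 astrocyte markers checked reached 1 CPM in at least 1 library of every group. Their summed level was 1416 to 5329 CPM, led by the glutamate transporters Slc1a3 and Slc1a2. Mitochondrial ribosomal RNA took 28.0 to 29.8% of reads in HBEGF withdrawal cells, against 17.2 to 18.2% in HBEGF cells. It also took more in EGFR inhibitor cells, 22.3 to 25.4% against 18.4 to 18.8% in EGFR DMSO, and over the days, with 12.3 to 16.1% on day 2, 18.9 to 19.4% on day 7 and 20.2 to 23.9% on day 14. P53 inhibitor cells overlapped with their controls, at 24.0 to 26.1% against 22.7 to 24.7% in P53 DMSO. The part of this RNA in the results was not tested beyond a fit without mitochondrial genes, 1 of the 12 other settings tried. Since the libraries are bulk samples, fewer cells of a type and less RNA per cell cannot be told apart.

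Per kb of exon, a scale on which genes can be compared if reads were counted over exons, the 10 genes covered a wide range of levels. Sparc (mean of the 9 group means 195 CPM per kb of exon) and Sparcl1 (161) stood at the top, and their ranges over libraries overlapped: Sparc was above Sparcl1 in 10 of 25 libraries. Sparcl1 was above Gpc4 (29.1) in all 25 libraries, with no overlap of their ranges. Gpc4 was above Megf10 (13.5) within each of the 25 libraries, and Megf10 above Gpc6 (7.65) in 24. The middle of the order was less clear, with Nptx2 at 5.47, Thbs1 at 5.44 and Mertk at 5.07 CPM per kb of exon. Thbs1 exceeded Mertk in only 6 libraries, because its mean rests on a few groups. Chrdl1 followed at 3.11, and Thbs2 was by far the lowest at 0.261 CPM per kb of exon. The genes also differed in how much they varied: the highest group mean was 78.2 times the lowest for Thbs1 and 31.7 times for Nptx2, against 2.16 times for Gpc6 and 1.53 times for Mertk.

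**Figure D1:**
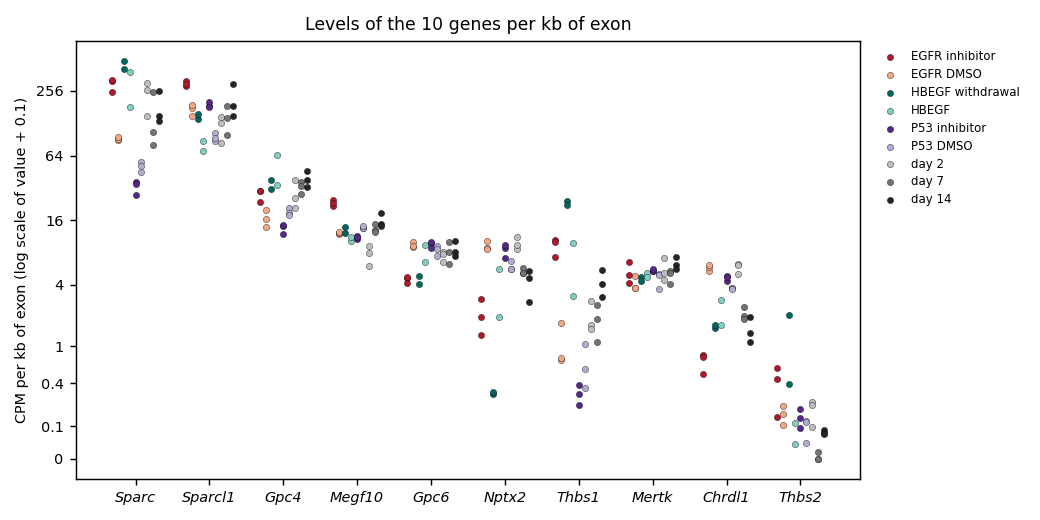
CPM per kb of exon of the 10 genes, on a log scale of the value plus 0.1, with 1 point per library coloured by group. The genes run from Sparc, with a mean of 195 CPM per kb of exon, to Thbs2, with 0.261, and Thbs1 and Nptx2 are spread most widely among the genes detected in every group.

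With the EGFR inhibitor, 5 of the 10 genes were higher than in EGFR DMSO (Thbs1, Sparc, Megf10, Sparcl1 and Gpc4), where 22.6% of all genes tested were called higher, and 3 were lower (Chrdl1, Nptx2 and Gpc6), where 20.7% of all genes were called lower. Their median log2 change was 0.74, against 0.06 over all genes. After HBEGF withdrawal, 3 were higher than in HBEGF (Thbs2, Thbs1 and Sparcl1), beside 15.9% of all genes, and 2 were lower (Nptx2 and Gpc6), beside 20.1%. The median log2 change of the 10 was 0.08, against -0.03 over all genes. Of all genes called after withdrawal, 44.1% were higher, and 54.6% under median-of-ratios scaling, which moved the median of all genes to 0.07. The P53 inhibitor left none of the 10 called by limma, with 3 at an unadjusted p below 0.05 and none called by voom on the recovered reads. Over all genes, 0.121% were called higher and 0.354% lower with the P53 inhibitor, so the share of higher calls, 25.5%, rests on few genes (41.9% under median-of-ratios scaling). The medians were 0.22 for the 10 and -0.03 for all genes.

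During culture, 1 of the 10 genes was higher on day 7 than on day 2 (Megf10), beside 5.76% of all genes, and 3 were lower (Chrdl1, Nptx2 and Thbs2), beside 10.2%. Between day 14 and day 7 none was called by limma or by voom, and 3 had an unadjusted p below 0.05. The background of that step was also low, at 0.354% of all genes higher and 0.394% lower. Over the whole span, day 14 against day 2, 2 genes were higher (Megf10 and Sparcl1), beside 7.81% of all genes, and 2 were lower (Chrdl1 and Nptx2), beside 17.4%. Median log2 changes of the 10 were -0.14, 0.30 and 0.20 for day 7 against 2, day 14 against 7 and day 14 against 2, with -0.05, -0.07 and -0.12 over all genes. Median-of-ratios scaling moved the last of these to 0.00, and it moved the share of higher genes among all those called to 46.4% (36.2% without it), 79.5% (47.3%) and 50.8% (31.0%) in the 3 comparisons of days. The comparisons of days share libraries with each other.

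**Figure D2:**
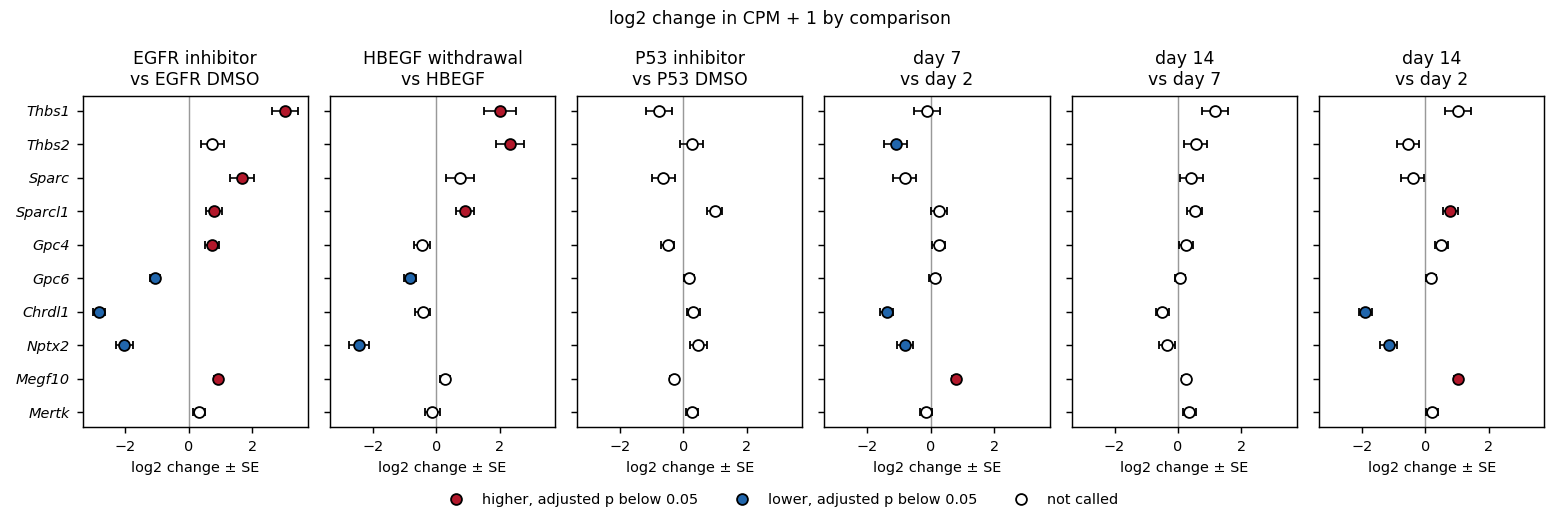
The log2 change of CPM + 1 with its SE (horizontal bars) for each gene in the 6 comparisons, with filled points where limma's adjusted p was below 0.05. The EGFR inhibitor panel has 8 filled points and the P53 inhibitor and day 14 against day 7 panels have none.

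Thbs1 (chromosome 2, 118111876 to 118127133, plus strand, GRCm38) encodes thrombospondin 1, a secreted matrix protein that promotes synapse formation through the calcium channel subunit α2δ-1. It had 64.4, 61.0 and 43.9 CPM in the 3 EGFR inhibitor libraries, against 10.4, 4.35 and 4.62 CPM in EGFR DMSO. Every inhibitor library was above every control, and the means were 8.72-fold higher with the inhibitor (log2 change 3.02 ± 0.41, adjusted p = 5.78e-06). Withdrawal cells had 146 and 135 CPM, against 60.1 and 19.0 CPM in HBEGF cells. The mean was 3.56-fold higher after withdrawal (log2 change 2.02 ± 0.50, adjusted p = 0.00328), but the 2 HBEGF libraries were far apart, and the change was 2.83 without HBEGF replicate 1 and 1.21, with an adjusted p of 0.0778, without HBEGF replicate 2. P53 inhibitor cells had 1.79, 2.30 and 1.31 CPM, against 3.52, 2.12 and 6.36 CPM in P53 DMSO. These groups overlapped (log2 change -0.76 ± 0.41, adjusted p = 0.646). In untreated culture Thbs1 had 10.0, 17.0 and 9.01 CPM on day 2, 11.3, 6.66 and 15.5 CPM on day 7 and 24.5, 18.4 and 33.2 CPM on day 14. Day 14 lay above both earlier days without overlap, yet the change from day 2 was not called (log2 change 1.03 ± 0.41, adjusted p = 0.0706). It was called under 5 of the 12 other settings (adjusted p = 0.0289 to 0.0485), among them the day series fitted alone and the fit without mitochondrial genes. Ordered by mean, the groups ran from withdrawal at the top to the P53 inhibitor at the bottom. Of 8 pairs of neighbours in that order only 2 did not overlap, withdrawal above EGFR inhibitor and day 14 above day 2. A noncoding gene, Gm29233, overlaps Thbs1 on the opposite strand, and no source used here states whether counting took account of strand.

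Thbs2 (chromosome 17, 14665500 to 14694235, minus strand), the second member of the same subgroup, was close to the limit of detection. It reached 1 CPM in 9 of 25 libraries, whereas Nptx2 did so in 23 and the other 8 genes in all 25. Withdrawal cells had 14.2 and 2.78 CPM, against 0.257 and 0.818 CPM in HBEGF cells, or 107 reads against 7 reads in all. Both withdrawal libraries were higher, though they differed widely (log2 change 2.33 ± 0.44, adjusted p = 8.76e-05), and the change ranged from 1.32 to 3.33 when single libraries were left out. With the EGFR inhibitor Thbs2 had 4.12, 0.999 and 3.12 CPM, against 1.11, 0.750 and 1.46 CPM in EGFR DMSO. The groups overlapped (log2 change 0.74 ± 0.36, adjusted p = 0.0974). Without EGFR inhibitor replicate 2, the lowest of its group, the change was 1.14 with an adjusted p of 0.0164, and array weights also gave a call (adjusted p = 0.0311). The P53 inhibitor libraries had 1.34, 0.986 and 0.657 CPM, against 0.881, 0.283 and 0.848 CPM in P53 DMSO, with overlap (log2 change 0.26 ± 0.36, adjusted p = 0.938). On day 2 Thbs2 had 1.65, 1.52 and 0.693 CPM, on day 7 0.115, 0 and 0 CPM and on day 14 0.598, 0.507 and 0.496 CPM. Day 7 held 1 read in all, where 3 reads would be 0.346 to 0.748 CPM in a library. The call for day 7 against day 2 (log2 change -1.11 ± 0.36, adjusted p = 0.0309) rests on these low counts. It was lost under 5 of the 11 other settings that kept the gene (adjusted p = 0.0509 to 0.613). The filter of 5 CPM left Thbs2 out. The call was also lost without any of 5 single libraries (0.0555 to 0.112).

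**Figure D3:**
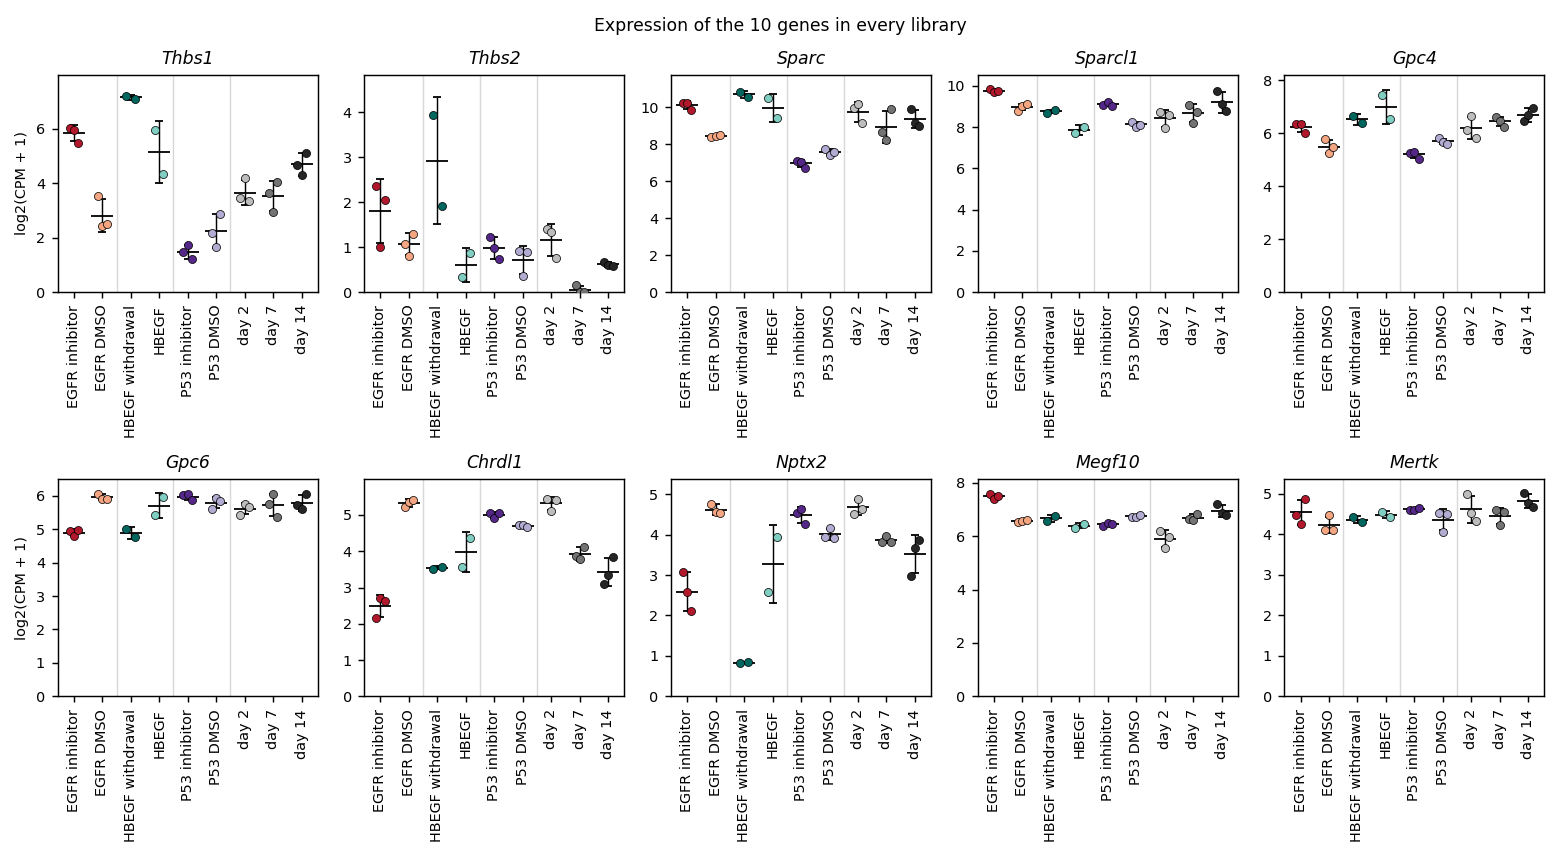
log2(CPM + 1) of each gene in every library, by group, with the mean and SD of the group as a line and bars (2 libraries in each HBEGF group, 3 in the others). Thbs1 libraries with the EGFR inhibitor lie at 43.9 to 64.4 CPM and EGFR DMSO libraries at 4.35 to 10.4 CPM, Chrdl1 shows the opposite order, and Mertk varies little.

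Sparcl1 (chromosome 5, 104079111 to 104113733, minus strand) encodes hevin, which bridges presynaptic neurexin and postsynaptic neuroligin. EGFR inhibitor cells had 918, 832 and 861 CPM, against 442, 517 and 554 CPM in EGFR DMSO. All 3 inhibitor libraries were higher (1.73-fold higher, log2 change 0.79 ± 0.24, adjusted p = 0.0128), and the call was lost without EGFR DMSO replicate 1 (adjusted p = 0.0538). After withdrawal it had 415 and 453 CPM, against 208 and 259 CPM in HBEGF cells. These did not overlap either (1.86-fold higher, log2 change 0.90 ± 0.29, adjusted p = 0.0234), but the call was lost without HBEGF replicate 1, withdrawal replicate 1 or withdrawal replicate 2 (adjusted p = 0.142, 0.0582 and 0.104) and with array weights (0.0887). The P53 inhibitor libraries had 541, 587 and 526 CPM, against 307, 258 and 275 CPM in P53 DMSO. This was the widest gap among the 10 genes in that comparison, with the lowest inhibitor library at 526 CPM and the highest control at 307 CPM (1.97-fold higher). It was not called in the fit over all groups (log2 change 0.98 ± 0.24, adjusted p = 0.0923) and was called under 3 of the 12 other settings, among them the P53 experiment fitted alone (adjusted p = 4.06e-08). On day 2 Sparcl1 had 429, 244 and 379 CPM, on day 7 547, 293 and 424 CPM and on day 14 862, 548 and 435 CPM. Day 14 was above day 2 (1.75-fold higher, log2 change 0.79 ± 0.24, adjusted p = 0.0223). That call was lost with the day series fitted alone (adjusted p = 0.143), with array weights (0.0975), and without day 14 replicate 1 (0.141) or day 2 replicate 2 (0.129). None of the 8 neighbouring pairs in the order of groups was free of overlap. The antisense gene Gm26703 overlaps Sparcl1.

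Sparc (chromosome 11, 55394500 to 55423183, minus strand) encodes a secreted matrix protein that antagonises hevin. It had 1199, 1207 and 935 CPM with the EGFR inhibitor, against 336, 347 and 359 CPM in EGFR DMSO. The groups were far apart, 3.20-fold higher with the inhibitor (log2 change 1.67 ± 0.37, adjusted p = 0.00155). Withdrawal cells had 1840 and 1532 CPM, against 1455 and 686 CPM in HBEGF cells, not overlapping but not called (log2 change 0.75 ± 0.45, adjusted p = 0.222). P53 inhibitor cells had 138, 132 and 105 CPM, against 211, 172 and 193 CPM in P53 DMSO. All inhibitor libraries were lower (log2 change -0.63 ± 0.37, adjusted p = 0.717), and the experiment fitted alone called it (adjusted p = 0.000418). Day 2 libraries had 992, 1143 and 564 CPM, day 7 libraries 401, 304 and 949 CPM and day 14 libraries 956, 566 and 510.3 CPM. Day 7 replicate 3 was about as high as day 2, and without it day 7 was lower than day 2 (log2 change -1.30, adjusted p = 0.0158), against -0.82 ± 0.37 (adjusted p = 0.156) with it. Array weights also gave a call (adjusted p = 0.01). In that library pericyte and fibroblast markers summed to 191 CPM, the highest of the day series. Acta2 made up most of the day 7 sums, at 48.3 to 177.8 CPM, and 6 of the 10 markers were below 1 CPM in every day 7 library. The part of these markers' cells in the Sparc level of day 7 replicate 3 was not tested. Sparc in P53 inhibitor and P53 DMSO cells was the lowest of all groups, and each neighbouring pair from EGFR DMSO downwards was free of overlap. Over the 9 group means, Sparc followed Thbs1 closely (Pearson r = 0.94), and Sparcl1 was not correlated with Sparc (r = 0.04). These values include differences between experiments. Within comparisons, Sparc and Sparcl1 both had positive changes with the EGFR inhibitor, after withdrawal and on day 14 against day 7. Their changes had opposite signs with the P53 inhibitor and on days 7 and 14 against day 2.

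Gpc4 (chromosome X, 52053021 to 52165252, minus strand) encodes glypican 4, a heparan sulfate proteoglycan released by astrocytes that acts through the release of Nptx1. EGFR inhibitor cells had 80.4, 80.3 and 63.1 CPM, against 53.4, 36.9 and 43.6 CPM in EGFR DMSO. All 3 inhibitor libraries were higher (1.67-fold higher, log2 change 0.73 ± 0.21, adjusted p = 0.00532), and the call was lost on log2(RPKM + 1) (adjusted p = 0.0572). Withdrawal cells had 100.01 and 82.5 CPM, against 172 and 91.0 CPM in HBEGF cells. One HBEGF library lay inside the withdrawal range and the other far above it (log2 change -0.46 ± 0.25, adjusted p = 0.164), and without HBEGF replicate 2 the change was -0.91 with an adjusted p of 0.0078. With the P53 inhibitor Gpc4 had 37.3, 38.5 and 31.8 CPM, against 55.3, 49.6 and 47.9 CPM in P53 DMSO. Inhibitor libraries were all lower (log2 change -0.50 ± 0.21, adjusted p = 0.45), with an adjusted p of 0.0101 in the experiment fitted alone. Gpc4 had 69.1, 100.1 and 55.0 CPM on day 2, 96.8, 88.2 and 75.3 CPM on day 7 and 86.8, 101 and 124 CPM on day 14. The days overlapped, and day 14 against day 2 was not called (log2 change 0.50 ± 0.21, adjusted p = 0.0802) in the fit over all groups. It was called under 5 of the 12 other settings (adjusted p = 0.0149 to 0.0496) and without day 2 replicate 2 (0.0115).

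Promoters were searched for only 4 of the 10 genes: Sparc, Gpc4, Mertk and Thbs2. Group means of Sparc and Gpc4 were correlated over the 9 groups (Pearson r = 0.80), and Mertk varied little. That r includes differences between experiments. Within comparisons, Sparc and Gpc4 had opposite signs after withdrawal (log2 changes 0.75 and -0.46). They also did on day 7 (-0.82 and 0.25) and day 14 (-0.40 and 0.50) against day 2. None of these changes was called, and the other comparisons shared a sign. The promoters of Sparc, Gpc4 and Mertk are shown to set the genes side by side. They are 300 bases each, from RefSeq, GRCm38.p6, 5′ to 3′ on the strand of the gene. Each runs from 250 bases before to 50 bases after the start in RefSeq. For Sparc that start, 55420080, lies 3103 bases inside the gene span given above, and for Gpc4 it lies 329 bases inside. Capitals mark letters that match the TEAD motif GGAATG on either strand.
Sparc (chr11:55420031-55420330, minus strand): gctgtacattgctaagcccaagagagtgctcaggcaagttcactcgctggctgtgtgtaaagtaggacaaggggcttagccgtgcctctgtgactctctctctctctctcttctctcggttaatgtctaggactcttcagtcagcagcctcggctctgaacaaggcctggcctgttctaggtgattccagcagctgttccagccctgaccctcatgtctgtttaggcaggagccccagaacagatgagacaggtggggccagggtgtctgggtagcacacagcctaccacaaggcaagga
Gpc4 (chrX:52164874-52165173, minus strand): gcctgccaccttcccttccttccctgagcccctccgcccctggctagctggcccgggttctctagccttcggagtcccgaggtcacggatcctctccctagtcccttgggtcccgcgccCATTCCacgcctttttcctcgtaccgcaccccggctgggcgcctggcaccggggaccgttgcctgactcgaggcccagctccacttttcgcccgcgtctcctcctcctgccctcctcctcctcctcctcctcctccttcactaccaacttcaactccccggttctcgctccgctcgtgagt
Mertk (chr2:128698665-128698964, plus strand): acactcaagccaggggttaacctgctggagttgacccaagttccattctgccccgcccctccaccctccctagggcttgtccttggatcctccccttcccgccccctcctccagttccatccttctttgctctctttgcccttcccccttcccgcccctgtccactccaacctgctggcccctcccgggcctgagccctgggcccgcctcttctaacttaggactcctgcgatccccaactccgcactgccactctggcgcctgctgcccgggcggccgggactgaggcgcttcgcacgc
GC content was 55.3% for Sparc, 66.7% for Gpc4 and 66.0% for Mertk. The sequences were searched on both strands for TGANTCA (AP-1), TGACGTCA (CRE) and GGAATG, none of which overlapped another. The Gpc4 promoter held 1 match, to GGAATG on the minus strand at position -131, and 14.7% of 32851 RefSeq promoters of that length hold it at least once. The Sparc and Mertk promoters held no match, nor did the promoter of Thbs2. TGANTCA is in 7.81% of all promoters and TGACGTCA in 1.79%. A match is a description of letters and not a site.

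Gpc6 (chromosome 14, 116925315 to 117976544, plus strand) encodes glypican 6 and is the longest of the genes, with a span 164 times its exons. EGFR inhibitor cells had 29.5, 26.6 and 30.3 CPM, against 65.4, 58.3 and 59.4 CPM in EGFR DMSO. Gpc6 thus moved opposite to Gpc4 in this comparison, 2.12-fold lower with the inhibitor and with little spread (log2 change -1.06 ± 0.16, adjusted p = 1.98e-06). Withdrawal cells had 31.0 and 26.2 CPM, against 42.2 and 61.2 CPM in HBEGF cells. Both withdrawal libraries were lower (1.80-fold lower, log2 change -0.81 ± 0.19, adjusted p = 0.00119), though the call was lost without HBEGF replicate 2 (adjusted p = 0.0728). The P53 inhibitor libraries had 63.4, 65.1 and 57.1 CPM, against 47.8, 59.6 and 56.2 CPM in P53 DMSO. Those overlapped (log2 change 0.18 ± 0.16, adjusted p = 0.849), as did 42.1, 52.4 and 49.4 CPM on day 2, 52.6, 65.3 and 40.6 CPM on day 7 and 51.9, 47.4 and 65.9 CPM on day 14. In the order of groups, the only neighbouring pair free of overlap was day 2 above EGFR inhibitor: 7 groups lay between 48.0 and 61.9 CPM, and the EGFR inhibitor and withdrawal groups at 28.8 and 28.6 CPM. The miRNA gene Mir6239 lies within Gpc6 on the opposite strand.

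Nptx2 (chromosome 5, 144545902 to 144557478, plus strand) encodes neuronal pentraxin 2, a secreted protein that clusters AMPA receptors and is best known from neurons. It had 7.38, 4.996 and 3.29 CPM with the EGFR inhibitor, against 26.2, 22.5 and 22.005 CPM in EGFR DMSO. Every inhibitor library was lower (4.51-fold lower, log2 change -2.03 ± 0.26, adjusted p = 1.71e-07). Withdrawal cells had 0.765 and 0.795 CPM, 9 reads in all, against 5.01 and 14.4 CPM in HBEGF cells, 127 reads in all. The withdrawal libraries agreed closely and lay below both others (12.4-fold lower, log2 change -2.43 ± 0.32, adjusted p = 3.86e-07). The HBEGF libraries differed, and the log2 change was -3.11 without HBEGF replicate 1 and -1.76 without HBEGF replicate 2. With the P53 inhibitor Nptx2 had 22.4, 23.9 and 18.1 CPM, against 14.3, 16.9 and 14.2 CPM in P53 DMSO, with no overlap but no call (log2 change 0.47 ± 0.26, adjusted p = 0.655). On day 2 it had 21.8, 28.3 and 24.03 CPM, on day 7 13.03, 14.6 and 13.2 CPM and on day 14 6.88, 11.8 and 13.7 CPM. Both later days were below day 2, by log2 -0.81 ± 0.26 on day 7 (adjusted p = 0.0312) and -1.16 ± 0.26 on day 14 (adjusted p = 0.00107, 2.29-fold lower). The call on day 7 was lost under 5 of the 12 other settings (adjusted p = 0.0506 to 0.073) and without any of 5 single libraries (0.052 to 0.132).

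Chrdl1 (chromosome X, 143285674 to 143394262, minus strand) encodes chordin-like 1, a secreted BMP antagonist that in the brain comes from astrocytes. EGFR inhibitor cells had 3.43, 5.495 and 5.20 CPM, against 36.0, 40.0 and 41.5 CPM in EGFR DMSO. No other change of the 10 genes had as small an adjusted p (8.32-fold lower, log2 change -2.83 ± 0.20, adjusted p = 1.18e-12). Withdrawal cells had 10.4 and 10.9 CPM, against 10.9 and 19.5 CPM in HBEGF cells. One HBEGF library was at the level of withdrawal and the other well above (log2 change -0.42 ± 0.24, adjusted p = 0.182), and without the lower one, HBEGF replicate 1, the change was -0.81 with an adjusted p of 0.0235. P53 inhibitor cells had 32.5, 29.0 and 32.0 CPM, against 25.3, 25.2 and 24.4 CPM in P53 DMSO. The inhibitor libraries were slightly higher (log2 change 0.31 ± 0.20, adjusted p = 0.741). Chrdl1 had 42.1, 33.7 and 41.4 CPM on day 2, 13.6, 12.7 and 16.4 CPM on day 7 and 7.48, 9.26 and 13.2 CPM on day 14. It was lower on day 7 than on day 2 (log2 change -1.39 ± 0.20, adjusted p = 6.16e-06) and 3.91-fold lower on day 14 (log2 change -1.89 ± 0.20, adjusted p = 1.17e-08). Chrdl1 separated the groups best, with 5 of 8 neighbouring pairs free of overlap, and EGFR inhibitor cells were below day 14.

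Megf10 (chromosome 18, 57133090 to 57297467, plus strand) encodes a receptor with EGF-like repeats through which astrocytes engulf synapses. It had 191, 169 and 179 CPM with the EGFR inhibitor, against 92.8, 95.1 and 95.7 CPM in EGFR DMSO. The 3 inhibitor libraries were the highest of all 25 (1.90-fold higher, log2 change 0.92 ± 0.13, adjusted p = 5.41e-07). Withdrawal cells had 94.5 and 108 CPM, against 79.2 and 86.7 CPM in HBEGF cells. This small gap was not called (log2 change 0.28 ± 0.16, adjusted p = 0.156) but was under median-of-ratios scaling (0.42, adjusted p = 0.0361), with quantile normalization (adjusted p = 0.00422) and without mitochondrial genes (0.49, adjusted p = 0.0145). P53 inhibitor cells had 82.5, 89.2 and 86.8 CPM, against 104, 105 and 110.5 CPM in P53 DMSO. They were all lower (log2 change -0.30 ± 0.13, adjusted p = 0.44), and the experiment fitted alone called it (adjusted p = 0.0353). Megf10 had 71.9, 46.1 and 61.9 CPM on day 2, 99.7, 95.9 and 114 CPM on day 7 and 146, 115 and 110.0 CPM on day 14. Both later days were above day 2 without overlap, by log2 0.79 ± 0.13 on day 7 (adjusted p = 3.35e-05) and 1.04 ± 0.13 on day 14 (adjusted p = 1.69e-07, 2.06-fold higher).

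Mertk (chromosome 2, 128698956 to 128802894, plus strand) encodes a TAM family receptor tyrosine kinase that recognises phosphatidylserine through the bridging proteins Gas6 and protein S. EGFR inhibitor cells had 21.5, 18.2 and 28.4 CPM, against 16.3, 21.1 and 16.3 CPM in EGFR DMSO. Withdrawal cells had 20.49 and 18.7 CPM, against 22.4 and 20.45 CPM in HBEGF cells. Both pairs overlapped (0.31 ± 0.19 in log2, adjusted p = 0.179, and -0.12 ± 0.23, adjusted p = 0.717). P53 inhibitor cells had 23.5, 23.3 and 24.3 CPM, against 22.03, 15.7 and 21.6 CPM in P53 DMSO (log2 change 0.26 ± 0.19, adjusted p = 0.79). Day 2 had 30.8, 22.2 and 19.2 CPM, day 7 23.2, 17.7 and 22.4 CPM and day 14 31.4, 26.4 and 24.4 CPM. Mertk was called in none of the 6 comparisons, and all 8 neighbouring pairs in the order of groups overlapped. The P53 inhibitor libraries nevertheless lay above P53 DMSO, and day 14 above day 7, without overlap. The antisense gene Gm14011 and the small RNA gene Gm23172 overlap Mertk.

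The responses to the EGFR inhibitor and to HBEGF withdrawal, both of which reduce signalling through the EGF receptor by design, were set against each other by testing the difference of the changes, in experiments that share no library. For 2 of the 10 genes the difference was called, beside 3.86% of all genes tested. Chrdl1 fell more against its control with the inhibitor (difference -2.41 ± 0.31, adjusted p = 1.71e-05). Gpc4 was higher than its control with the inhibitor and not after withdrawal (difference 1.19 ± 0.32, adjusted p = 0.0378). The controls also differed for both genes. Chrdl1 averaged 39.2 CPM in EGFR DMSO and 15.2 CPM in HBEGF, against 4.71 CPM with the inhibitor and 10.66 CPM after withdrawal. Gpc4 averaged 44.65 CPM in EGFR DMSO and 131.5 CPM in HBEGF, against 74.57 and 91.24 CPM in the treated groups. The part of the controls in these differences was not tested. The Gpc4 call was lost under 7 of the 12 other settings (adjusted p = 0.0557 to 0.0958) and without any of 7 single libraries (0.0559 to 0.232). For Thbs2, the difference of -1.59 ± 0.57 had an adjusted p of 0.116, and 0.00431 without withdrawal replicate 2. For Megf10 0.63 ± 0.20 had an adjusted p of 0.0686, and was called on log2(RPKM + 1) (0.0375) and with each experiment fitted alone (0.0335). Differences for Thbs1 (1.0 ± 0.64), Sparc (0.92 ± 0.59), Nptx2 (0.40 ± 0.41), Gpc6 (-0.25 ± 0.25), Sparcl1 (-0.11 ± 0.38) and Mertk (0.43 ± 0.29) were within about 2 SE of 0, which does not show that the responses were equal. Among all genes called in this difference, 60.5% were higher, and 39.6% under median-of-ratios scaling. Against the P53 inhibitor change, 7 of the 10 differed, beside 33.3% of all genes: Thbs1 (3.78 ± 0.57), Sparc (2.29 ± 0.53), Gpc4 (1.23 ± 0.29) and Megf10 (1.22 ± 0.18) upwards, and Chrdl1 (-3.14 ± 0.28), Nptx2 (-2.50 ± 0.37) and Gpc6 (-1.24 ± 0.22) downwards, with adjusted p from 6.49e-10 to 0.00287. Sparcl1 had log2 changes of 0.79 with the EGFR inhibitor and 0.98 with the P53 inhibitor, and its difference was -0.19 ± 0.34 (adjusted p = 0.716). The differences for Thbs2 (0.48 ± 0.51) and Mertk (0.05 ± 0.26) were not called either.

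**Figure D4:**
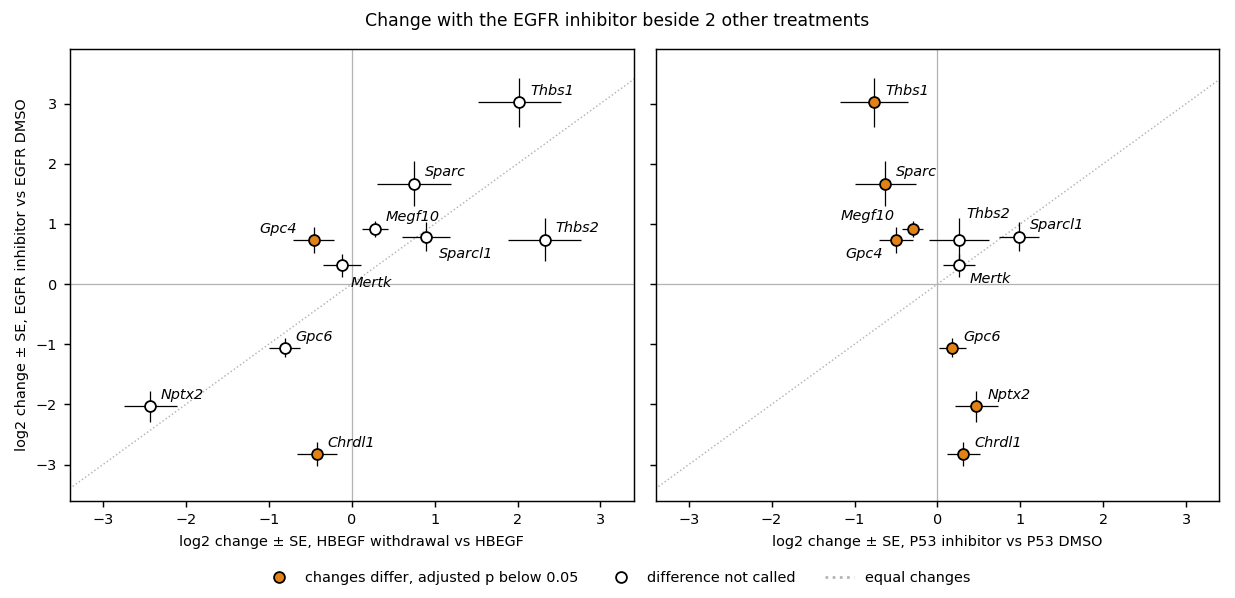
The log2 change with the EGFR inhibitor (vertical axis) beside that after HBEGF withdrawal (left) and with the P53 inhibitor (right), with SE bars, and the line of equal changes dotted. Chrdl1 and Gpc4 are the filled points on the left, with differences of -2.41 and 1.19, and 7 genes are filled on the right.

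Set beside the days in culture, 4 genes were called in the same direction with the EGFR inhibitor and on day 14 against day 2, beside 14.2% of all genes tested (2 higher in both, beside 4.45%, and 2 lower in both, beside 9.79%). These were Megf10 (0.92 and 1.04), Sparcl1 (0.79 and 0.79), Chrdl1 (-2.83 and -1.89) and Nptx2 (-2.03 and -1.16). Sparc was 1.67 ± 0.37 with the inhibitor and -0.40 ± 0.37 on day 14, and Gpc6 -1.06 ± 0.16 and 0.19 ± 0.16. The differences between these pairs of changes were not tested.

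Markers of other cell types moved in the same comparisons. Their counts stand beside the shares of all genes called higher and lower, 22.6% and 20.7% with the EGFR inhibitor and 15.9% and 20.1% after withdrawal. The shares were 7.81% and 17.4% for day 14 against day 2, and 5.76% and 10.2% for day 7 against day 2. Microglia and macrophage markers summed to 16.5 to 40.3 CPM with the EGFR inhibitor, against 3.09 to 6.57 CPM in EGFR DMSO, and 7 of the 10 tested of 12 listed were called higher. After withdrawal they summed to 74.9 to 154 CPM, against 1.45 to 2.03 CPM in HBEGF, with 8 called higher, led by Lyz2, and Tmem119 at 0 in every library of all 4 groups. Pericyte and fibroblast markers summed to 93.4 to 117 CPM with the EGFR inhibitor, against 40.0 to 59.96 CPM in EGFR DMSO, with 3 of the 6 tested of 10 listed higher. After withdrawal the sum was 245 to 324 CPM, against 56.5 to 73.0 CPM in HBEGF, with 4 higher. Acta2 and Pdgfrb made up most of it, and Dcn was at 0 in all 4 groups. Oligodendrocyte markers summed to 829 to 986 CPM after withdrawal, against 156 to 390 CPM in HBEGF, with 5 of 6 higher, and to 43.3 to 51.6 CPM with the EGFR inhibitor, against 11.2 to 13.9 CPM in EGFR DMSO, with 2 of 6 higher. Precursor markers, led by Olig1, went the other way: 447 to 538 CPM with the EGFR inhibitor, against 928 to 1169 CPM in EGFR DMSO (3 of 7 lower, 2 higher), and 374 to 401 CPM after withdrawal, against 1177 to 1265 CPM in HBEGF (3 of 7 lower). Neuron markers, mostly Map2, summed to 1109 to 1203 CPM with the EGFR inhibitor, against 656 to 708 CPM in EGFR DMSO, with 9 of the 11 tested of 12 listed higher and 1 lower. Map2 itself was at 820 to 913 CPM, against 617 to 666 CPM, and Snap25 at 15.6 to 20.45 CPM, against 26.0 to 31.45 CPM. Part of the rise in the sum thus lay in other neuron markers. After withdrawal the neuron list was at 656 to 700 CPM, against 755 to 780 CPM in HBEGF (5 higher, 1 lower). Endothelial markers never exceeded 7.49 CPM in sum, with Cldn5 and Cdh5 at or near 0. Of the 4 tested of 7 listed, 1 was lower with the EGFR inhibitor, and 1 was higher and 1 lower after withdrawal. The astrocyte list itself was at 5256 to 5329 CPM with the EGFR inhibitor, against 2561 to 2744 CPM in EGFR DMSO (6 of 10 higher, 2 lower), and at 3550 to 3825 CPM after withdrawal, against 2501 to 2566 CPM in HBEGF (4 higher, 2 lower). On day 14 against day 2, astrocyte markers summed to 2765 to 4634 CPM, against 1416 to 2370 CPM (6 of 10 higher), microglia and macrophage markers to 1.61 to 1.70 CPM, against 7.43 to 15.5 CPM (2 of 10 tested lower), and precursor markers to 914 to 1141 CPM, against 955 to 1203 CPM (3 of 7 lower). Neuron markers summed to 1042 to 1255 CPM, against 597 to 864 CPM (3 of 11 tested higher, 2 lower), and pericyte and fibroblast markers to 59.2 to 127 CPM, against 23.1 to 48.35 CPM (1 of 6 tested higher, 1 lower), and 1 of 4 endothelial markers was lower. On day 7 against day 2, 6 of 10 astrocyte markers, 3 of 11 neuron markers, 1 of 6 pericyte and fibroblast markers and 1 of 4 endothelial markers were higher, and 2 of 10 microglia and macrophage markers and 1 of 11 neuron markers were lower. With the P53 inhibitor, 1 of 10 astrocyte markers and 1 of 7 precursor markers were lower, and no other marker was called. Of all genes, 0.121% were called higher and 0.354% lower in that comparison. The part of the cell types in the changes of the 10 genes was not tested.

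**Figure D5:**
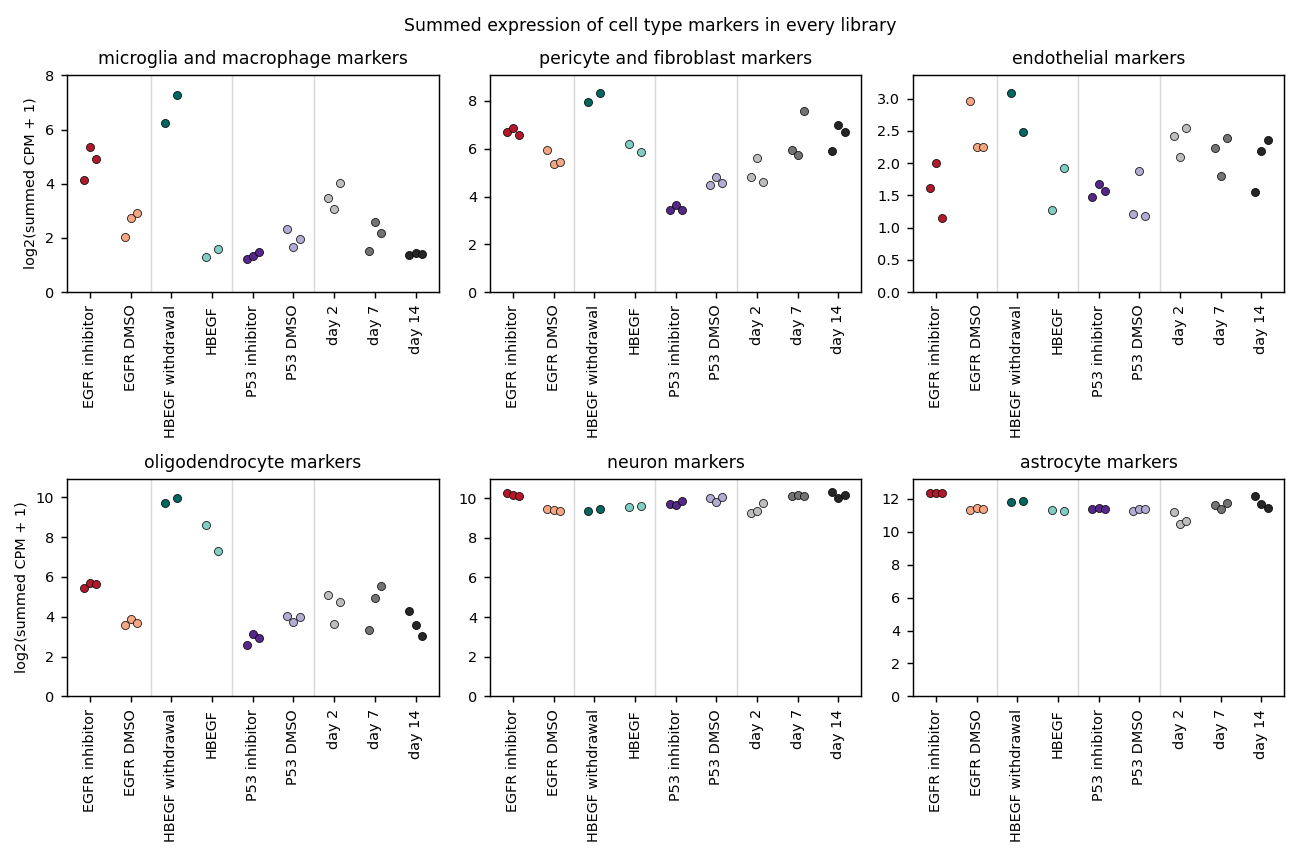
Summed CPM of 6 lists of cell type markers, as log2(sum + 1), in every library by group. The oligodendrocyte precursor list is not drawn. Microglia and macrophage markers in withdrawal libraries lie at 74.9 to 154 CPM and in HBEGF libraries at 1.45 to 2.03 CPM, and endothelial markers stay at or below 7.49 CPM.

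Relatives and partners of the 10 genes were followed in 8 lists. Of all genes tested, 22.6% were called higher and 20.7% lower with the EGFR inhibitor, and 15.9% and 20.1% after withdrawal. For day 14 against day 2 the shares were 7.81% and 17.4%, and with the P53 inhibitor 0.121% and 0.354%. The lists were not tested as sets, and counts near these shares say nothing particular about a list. Other thrombospondins and SPARC family genes had 3 of 9 higher and none lower with the EGFR inhibitor, and 3 higher and 1 lower after withdrawal. Thbs3, a thrombospondin of the subgroup that forms pentamers, was 3.03-fold higher (log2 change 1.55 ± 0.25, adjusted p = 6.17e-06) with the inhibitor and 1.98-fold higher (log2 change 0.96 ± 0.30, adjusted p = 0.0124) after withdrawal. Fstl1, a secreted follistatin-like protein, was 2.49-fold higher (log2 change 1.31 ± 0.15, adjusted p = 2.71e-08) with the inhibitor. Smoc1, a matrix protein of the SPARC family, was 2.31-fold lower (log2 change -1.20 ± 0.23, adjusted p = 0.00031) after withdrawal and 3.83-fold higher (log2 change 1.86 ± 0.19, adjusted p = 2.07e-07) on day 14 than on day 2. Its relative Smoc2 averaged 11.8 CPM after withdrawal and 0.766 CPM in HBEGF.

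Of the other glypicans and syndecans, 2 of 8 were higher and 3 lower with the EGFR inhibitor, and 4 higher and 1 lower on day 14 against day 2. Sdc1, a syndecan, was 3.73-fold lower (log2 change -1.63 ± 0.29, adjusted p = 2.92e-05) with the inhibitor, and Sdc3, the syndecan of neural tissue, was 2.07-fold lower (log2 change -1.04 ± 0.17, adjusted p = 1.54e-05). Sdc2 was 1.75-fold higher (log2 change 0.81 ± 0.16, adjusted p = 0.000185) after withdrawal. Gpc5, another glypican, averaged 8.13 CPM on day 14, 4.46-fold higher (log2 change 1.78 ± 0.34, adjusted p = 0.00572) than on day 7.

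All 3 of the other pentraxins were called with the EGFR inhibitor, 2 higher and 1 lower. Nptx1, the neuronal pentraxin whose release GPC4 acts on, was 5.88-fold lower (log2 change -2.47 ± 0.42, adjusted p = 0.000126) with the inhibitor and 9.55-fold lower (log2 change -2.55 ± 0.51, adjusted p = 0.0008) after withdrawal, the same direction as Nptx2. The receptor form Nptxr went the other way, 1.99-fold higher (log2 change 0.94 ± 0.21, adjusted p = 0.000423), as did the inflammation-linked Ptx3, 2.46-fold higher (log2 change 1.14 ± 0.31, adjusted p = 0.00331). On day 14 against day 2, Ptx3 and Nptxr were both lower.

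Among BMP ligands and antagonists other than Chrdl1, 7 of 9 were tested, and 2 were higher and 1 lower with the EGFR inhibitor. The ligand Bmp7 was 11.1-fold lower (log2 change -3.29 ± 0.24, adjusted p = 6.3e-11), in the direction of Chrdl1, whereas the ligand Bmp6 was 8.08-fold higher (log2 change 2.72 ± 0.38, adjusted p = 1.41e-06). After withdrawal Bmp6 was 7.47-fold higher (log2 change 2.80 ± 0.46, adjusted p = 2.34e-05) and Bmp7 3.72-fold lower (log2 change -1.79 ± 0.29, adjusted p = 2.43e-05). Bmp4 averaged 8.86 CPM with the EGFR inhibitor and 0.617 CPM in EGFR DMSO.

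Other secreted factors that act on synapses had 4 of 13 higher and 3 lower with the EGFR inhibitor, and 6 higher and 3 lower after withdrawal. The complement gene C4b has a close copy in the genome, so its counts are uncertain, and it was 31.2-fold higher (log2 change 4.41 ± 0.50, adjusted p = 5.9e-07) with the inhibitor. The lipid carrier Apoe was 4.95-fold higher (log2 change 2.31 ± 0.31, adjusted p = 1.3e-05) and stood out also in culture, 22.5-fold higher (log2 change 4.44 ± 0.31, adjusted p = 1.96e-08) on day 14 than on day 2. The proteoglycan neurocan, Ncan, was 3.11-fold lower (log2 change -1.61 ± 0.19, adjusted p = 1.36e-06) after withdrawal, and the neurotrophin Bdnf was 5.27-fold higher (log2 change 1.84 ± 0.32, adjusted p = 5.17e-05) on day 14 than on day 2.

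Receptors and partners of the secreted proteins, such as α2δ subunits, neuroligins, neurexins and receptor phosphatases, had 8 of 16 higher and none lower with the EGFR inhibitor, and 11 higher and 3 lower on day 14 against day 2. Ptprs, which encodes the receptor phosphatase PTPσ, was 2.20-fold higher (log2 change 1.13 ± 0.12, adjusted p = 1.95e-09) with the inhibitor and 2.34-fold higher (log2 change 1.25 ± 0.14, adjusted p = 2.44e-08) after withdrawal. The AMPA receptor subunit Gria1 was 22.5-fold higher (log2 change 3.77 ± 0.33, adjusted p = 3.09e-10) on day 14 than on day 2, and the α2δ-3 subunit Cacna2d3 was 13.5-fold higher (log2 change 3.30 ± 0.29, adjusted p = 3.37e-10). Nlgn3, a neuroligin that astrocytes also carry, was 2.61-fold higher (log2 change 1.37 ± 0.12, adjusted p = 1.03e-09) on day 7 than on day 2.

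For the engulfment receptors, bridging ligands and other TAM receptors had 4 of 6 higher and 2 lower with the EGFR inhibitor, and 4 higher and none lower after withdrawal. Gas6, a ligand of MERTK, was 5.14-fold higher (log2 change 2.27 ± 0.22, adjusted p = 1.96e-09) after withdrawal, where Mertk itself had a change of -0.12 ± 0.23. Pros1, the gene of protein S, was 1.55-fold lower (log2 change -0.61 ± 0.16, adjusted p = 0.0018) with the EGFR inhibitor. Mfge8, which links phosphatidylserine to integrins, was 1.92-fold higher (log2 change 0.94 ± 0.18, adjusted p = 0.000228), and Anxa5, a phosphatidylserine-binding annexin, was 1.96-fold higher (log2 change 0.96 ± 0.15, adjusted p = 6.25e-06). The engulfment machinery had 4 of the 19 tested of 20 listed higher and 6 lower with the EGFR inhibitor, and 3 higher and 8 lower after withdrawal. Itgav, the αv integrin subunit, was 2.95-fold lower (log2 change -1.55 ± 0.12, adjusted p = 1.19e-11) and the adaptor Crk 1.64-fold lower (log2 change -0.71 ± 0.10, adjusted p = 5.11e-07) with the inhibitor. Abca1, a lipid exporter of the family linked to engulfment, was 2.44-fold higher (log2 change 1.29 ± 0.19, adjusted p = 2.05e-05). Jag1, on that list but best known as a Notch ligand, was 4.29-fold lower (log2 change -2.01 ± 0.25, adjusted p = 3.52e-07). With the P53 inhibitor, 1 gene of the 8 lists was called, Dock1, an activator of Rac in engulfment, at 1.36-fold higher (log2 change 0.44 ± 0.11, adjusted p = 0.0425).

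For each of the 10 genes, the 2 genes with the most similar pattern over the 9 group means of log2(CPM + 1) were found among 11404 candidates, by Pearson r. For Thbs1 they were Tbc1d2b (r = 0.99) and Crb2 (0.989), for Thbs2 Wdr49 and Lgals3 (0.972 each), for Sparc Ctnnal1 (0.979) and Cd151 (0.972), and for Sparcl1 Slc38a10 (0.925) and Sgcb (0.916). Gpc4 was closest to Ubl5 (0.957) and Vti1b (0.951), Gpc6 to Ctsc (0.983) and Insig1 (0.982), and Chrdl1 to Fhl3 (0.96) and Tspyl2 (0.955). Nptx2 had Gpsm2 (0.987) and Dgkk (0.983), Megf10 had Ttyh1 (0.973) and Paqr7 (0.971), and Mertk had Zfp934 (0.899) and Ghdc (0.871), the loosest matches. Lgals3, galectin 3, is also a gene of microglia and macrophages. Among the 10 themselves, Gpc6 followed Nptx2 (r = 0.85), while Nptx2 ran against Thbs1 (-0.88) and Megf10 against Chrdl1 (-0.80). These values describe 9 points that share libraries and depth between genes.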

How the data were processed

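RNA was measured by sequencing in 25 libraries of 9 groups, with groups taken from the sample labels. The authors deposited RPKM per gene. STAR, HTSeq, edgeR, limma and GRCm38 are named in the submitters' processing notes, with no version or role, and neither annotation release nor strand setting is stated there. RPKM was multiplied by the whole gene span of GENCODE M21, found for 53643 of 54429 entries (98.56%), and the 786 others were left out. The products summed to 999076 to 1002555 per library and were taken as CPM, so the deposited RPKM is per kb of span. Whole reads were recovered for 99.02 to 99.28% of values of up to 20 reads (tolerance 0.1). Depths were 4009947 to 9690600 reads, and intervals for low reads would cover counting error only. No column was unmapped. The closest pair of libraries correlated at 0.9955, and none were identical.

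Genes with at least 1 CPM in at least 2 libraries (19800) were tested with limma 3.58.1 (R 4.3.3) on log2(CPM + 1), 1 mean per group over all libraries, with trended, robust empirical Bayes moderation and 16 residual degrees of freedom. All adjusted p are limma's, by Benjamini-Hochberg within each of 6 comparisons and 2 differences, called below 0.05. The CPM scale was used because a pseudocount in RPKM presses long genes towards 0. Alternatives were 12 other settings and leaving out each of the 25 libraries. The fit was tested on simulated data. The genes, pathway lists and markers were chosen with earlier results of these data known. Text names the 10 genes, up to 4 genes per list with the smallest p over the comparisons, the 2 highest markers per list and the 2 most similar genes, and other genes named were picked after their values were seen. Figures came from matplotlib 3.10.9 and tables from pandas 2.3.3 with numpy 2.4.6 under Python 3.11.15.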

Additional observations from a re-analysis of the deposited data

Results flagged for a closer look

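The change in Chrdl1 with the EGFR inhibitor differed from its change after HBEGF withdrawal by -2.41 ± 0.31 on the log2 scale (limma, adjusted p = 1.71e-05). It was lower in 3 of 3 inhibitor libraries than in every EGFR DMSO library, while 1 of the 2 HBEGF libraries was at the level of withdrawal. The difference kept its sign and its call with each single library left out (-2.80 to -2.02). The controls were unlike, with Chrdl1 means of 39.2 CPM in EGFR DMSO and 15.2 CPM in HBEGF.

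Gpc4 differed between the same treatments by 1.19 ± 0.32 (adjusted p = 0.0378), higher in 3 of 3 EGFR inhibitor libraries and overlapping between withdrawal and HBEGF. This call was lost in several settings, and the difference was 0.74 without HBEGF replicate 1, whose Gpc4 level of 172 CPM was the highest of all libraries. The controls were unlike, with Gpc4 means of 44.65 CPM in EGFR DMSO and 131.5 CPM in HBEGF, against 74.57 and 91.24 CPM in the treated groups.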

How the results depend on the processing

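Of the 80 values tested for the 10 genes (8 changes or differences each), most kept their sign and call under the 12 other settings. Thbs2 had only 11 of these, since the filter of 5 CPM left it out. In all, 904 values kept both, 21 lost the call, 23 gained it and 4 turned sign. With single libraries left out the numbers were 515, 25, 6 and 14. Signs turned only for values that were not called and lay no more than about their SE from 0. Under other settings these were Mertk after withdrawal (0.0080 under median-of-ratios scaling, 0.078 without mitochondrial genes) and Gpc6 on day 14 against day 7 (-0.024 with array weights). Nptx2 in the difference between EGFR inhibitor and withdrawal also turned, and ranged from -0.32, on log2(RPKM + 1), to 1.02. Leaving out single libraries, ranges that crossed 0 were -0.37 to 0.18 (Thbs1), -0.047 to 0.29 (Gpc6) and -0.31 to 0.021 (Mertk) for day 7 against day 2, -0.10 to 0.23 for Gpc6 on day 14 against day 7, and -0.27 to 0.047 (Sparcl1), -0.51 to 0.017 (Gpc6) and -0.27 to 1.08 (Nptx2) for the difference between EGFR inhibitor and withdrawal. For Mertk the difference between the inhibitors ranged from -0.12 to 0.20.

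Counts of the 10 genes called moved to 4 for the P53 inhibitor with its experiment alone and 1 with array weights, to 2 for day 7 against day 2 (no filter, median-of-ratios scaling, quantile normalization, plain empirical Bayes) and to 1 for the difference between EGFR inhibitor and withdrawal (the same settings, or without mitochondrial genes). Among all genes, the P53 inhibitor gave 29 calls on log2(RPKM + 1), 47 with no filter, 951 alone, 21 with plain empirical Bayes and 719 with array weights, against 94. For withdrawal, 4360 were called with the experiment alone, against 7124, and for day 7 against day 2, 1677 alone, against 3151. For day 14 against day 7 there were 53 calls on log2(RPKM + 1), 97 with voom, 79 with no filter, 52 with plain empirical Bayes and none (0) with the day series alone, against 148. The difference between EGFR inhibitor and withdrawal gave 497 calls with plain empirical Bayes and 499 with array weights, against 765. The cause of these moves was not tested.

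Without single libraries, 7 to 9 of the 10 genes were called for the EGFR inhibitor, 4 to 5 for withdrawal, 0 to 1 for the P53 inhibitor, 2 to 4 for day 7 and 3 to 6 for day 14 against day 2, none for day 14 against day 7, and 1 to 3 and 7 for the differences. Calls among all genes ranged over 17 to 185 (P53 inhibitor), 62 to 177 (day 14 against day 7), 1902 to 3395 (day 7 against day 2), 3487 to 5299 (day 14 against day 2), 5110 to 7378 (withdrawal) and 388 to 979 (difference between EGFR inhibitor and withdrawal).

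With the replicate number as a replicate block, the P53 inhibitor had 1 of the 10 genes called (Sparcl1, adjusted p = 0.00362) and 60 genes in all, and Gpc4 was called on day 14 against day 2 (adjusted p = 0.0496). No other call among the 10 genes changed. The labels do not say that replicate numbers pair libraries, so the numbers were not taken as pairs. Deviations of same-numbered libraries from their group means had correlations from -0.194 to 0.18. With 2 or 3 libraries in a group these deviations depend on each other, so the correlations cannot exclude pairing. Depth limits Thbs2, with 0 to 93 reads a library, and Nptx2 after withdrawal, with 9 reads in all.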
